A study of Homo sapiens with 6 samples.

Results

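The genes described here are 10 AP-1 and early response genes. Most are immediate early genes, which cells switch on after a growth factor, stress or adhesion signal before any new protein has been made, whereas FOSL1 follows later and JUND is expressed without a signal. They comprise the Fos family (FOS, FOSB, FOSL1 and FOSL2), the Jun family (JUN, JUNB and JUND), the transcription factors EGR1 and ATF3, and the phosphatase DUSP1. The genes were chosen by symbol, and every probe set annotated to exactly 1 of these symbols was taken, which gave 26 probe sets out of 54613 tested. Levels were measured on Affymetrix expression arrays in SUM159, an established human breast cancer cell line. In the SCGB3A1 group (3 arrays) the cells carried the lentiviral vector pLVX-puro with human SCGB3A1, a small secreted protein, tested in the study as a factor of the vascular niche. In the control group (3 arrays) they carried pLVX-puro with no insert. Cells of both groups had been kept in puromycin at 2 μg/ml for 7 days and were then seeded at 12500 cells/ml in HuMEC medium on ultra-low attachment plastic, where they grew for 5 days as floating oncospheres. Whether the promoter of the vector was active in every cell, or whether single clones were isolated, is not given in the sources used here. The titles call the replicates biological, but whether each came from its own transduction is not stated. The p-values rest on these samples and may not measure the spread between transductions.

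AP-1 is a transcription factor made of a Fos protein paired with a Jun protein, or of a pair of Jun proteins, joined through a leucine zipper. Fos proteins do not form stable pairs with each other. Growth factor signals reach these genes through the MAP kinases ERK and JNK, which act on factors already bound to DNA, and the messages of FOS and EGR1 then appear and vanish quickly. FOSL1 is known for its high level in basal-like breast cancer cells. DUSP1 removes the activating phosphates of MAP kinases and so closes the loop.

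The DNA elements through which such signals reach these genes were looked for in RefSeq promoter windows (GRCh38.p14), each running from 250 bases before a transcription start to 50 bases after it. Of the 10 genes, 9 had a window, and ATF3 had a window for each of 2 starts. The search covered both strands for the CArG box, which binds the serum response factor SRF, the cAMP response element TGACGTCA, its AP-1-like form TGACATCA and the TPA response element TGAGTCA, the classic AP-1 site. Among all 35116 windows, the CArG box was in 1.29%, TGACGTCA in 1.85%, TGACATCA in 2.61% and TGAGTCA in 4.95%. EGR1 held a pair of CArG boxes, JUN and the upstream start of ATF3 held TGACATCA, and DUSP1 and JUND held TGACGTCA. In FOSL2 the AP-1 site was found just after the start. The windows of FOS, FOSB and JUNB held none of these letters, which says nothing of elements further away, and no match overlapped another. The sequences below show the matches upstream of a start, 5′ to 3′ on the strand of the gene, with the element in capitals. They lie at chr5:138465360-138465419 (EGR1, plus strand), chr1:58784081-58784140 (JUN, minus strand), chr1:212565258-212565317 (ATF3, plus strand), chr5:172771287-172771346 (DUSP1, minus strand) and chr19:18281789-18281848 (JUND, minus strand). Each is a match of letters and was not tested for binding.
EGR1: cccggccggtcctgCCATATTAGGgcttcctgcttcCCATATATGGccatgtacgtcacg
JUN: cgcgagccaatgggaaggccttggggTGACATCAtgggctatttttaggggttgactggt
ATF3: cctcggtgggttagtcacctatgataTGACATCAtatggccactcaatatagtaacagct
DUSP1: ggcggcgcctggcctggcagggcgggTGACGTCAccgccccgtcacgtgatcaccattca
JUND: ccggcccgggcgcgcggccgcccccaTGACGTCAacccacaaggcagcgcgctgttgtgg

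All values below are on the log2 scale, where a difference of 1 is a doubling, and differences are SCGB3A1 minus control. Array medians were 6.92 in every array. Control replicate 2 stood somewhat apart, with correlations of 0.989 to 0.993 with the other arrays, against 0.993 to 0.996 among the rest. The probe set of SCGB3A1 itself read 6.60, 6.92 and 6.71 in the SCGB3A1 arrays, against 6.80, 6.89 and 7.05 in the control arrays, a difference of -0.17 ± 0.10 (SE; limma, adjusted p = 0.83). Whether this probe set can see the cDNA of the vector is not known from the sources used here, so it does not check the labels, and directions hold for the arrays as labelled. The study's methods report that quantitative PCR after selection bore out the expression of the inserted gene in the transduced cells. Its values were not used here. Of 7 marker genes chosen for SUM159 cells (VIM, CD44, EGFR, KRT5, KRT18, CAV1 and AXL), 7 read above the median of all probe sets, as did 3 of 5 luminal, 3 of 4 leukocyte and 1 of 3 endothelial genes. That median is therefore no limit of detection, and which genes lie at background was not analysed here.

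No member probe set passed the test between groups. Of 26 probe sets, 0 had an adjusted p under 0.05 (limma, adjusted over all 54613 probe sets), where 10 probe sets, or 0.0183%, passed in the whole table. The differences were evenly split, 13 positive and 13 negative, and ran from -0.27 for a JUN probe set to 0.26 for a DUSP1 probe set. Their median was -0.0078, against 0.0026 over all probe sets, and without control replicate 2 it was -0.0476. Taken singly, 25 of the 26 95% intervals lay within 0.5 on either side of 0, and the outermost bounds were -0.57 and 0.47. Each interval covers the array values of 1 probe set. Together they do not bound the change of a gene, since intervals of JUN probe sets excluded each other. An unadjusted limma p under 0.05 was found for 3 member probe sets, or 11.5%, where 6.2% of all probe sets had one; these were 1 each of JUN, DUSP1 and ATF3. The groups were fully apart in 2 probe sets that read higher, or 7.69%, against 5.95% of all probe sets, and in 3 that read lower, or 11.5%, against 5.25%. In a bulk culture, fewer cells that express a gene and less RNA per cell cannot be told apart.

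**Figure D1:**
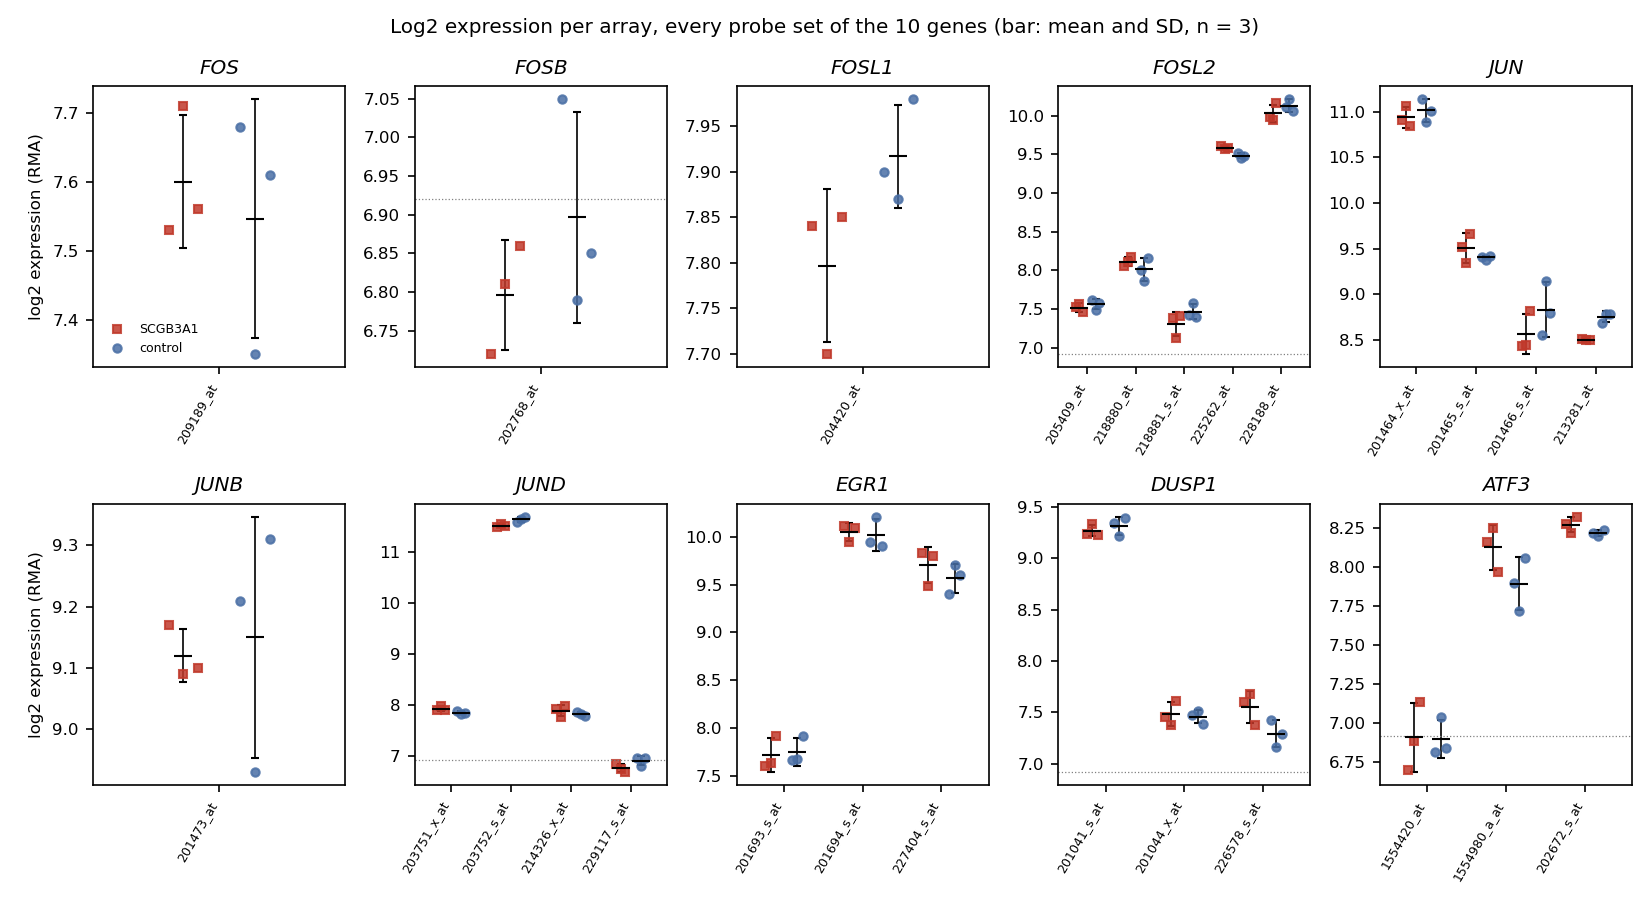
Log2 expression (vertical axis, each panel with its own scale) of every probe set of the 10 genes (horizontal axis), with red squares for the 3 SCGB3A1 arrays, blue circles for the 3 control arrays, black bars for mean and SD, and a dotted line at 6.92, the median of all probe sets, where a panel reaches it. The groups overlap in 21 of 26 probe sets. They are apart higher in 7.69% and lower in 11.5% of the member probe sets, against 5.95% and 5.25% of all probe sets.

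**Figure D2:**
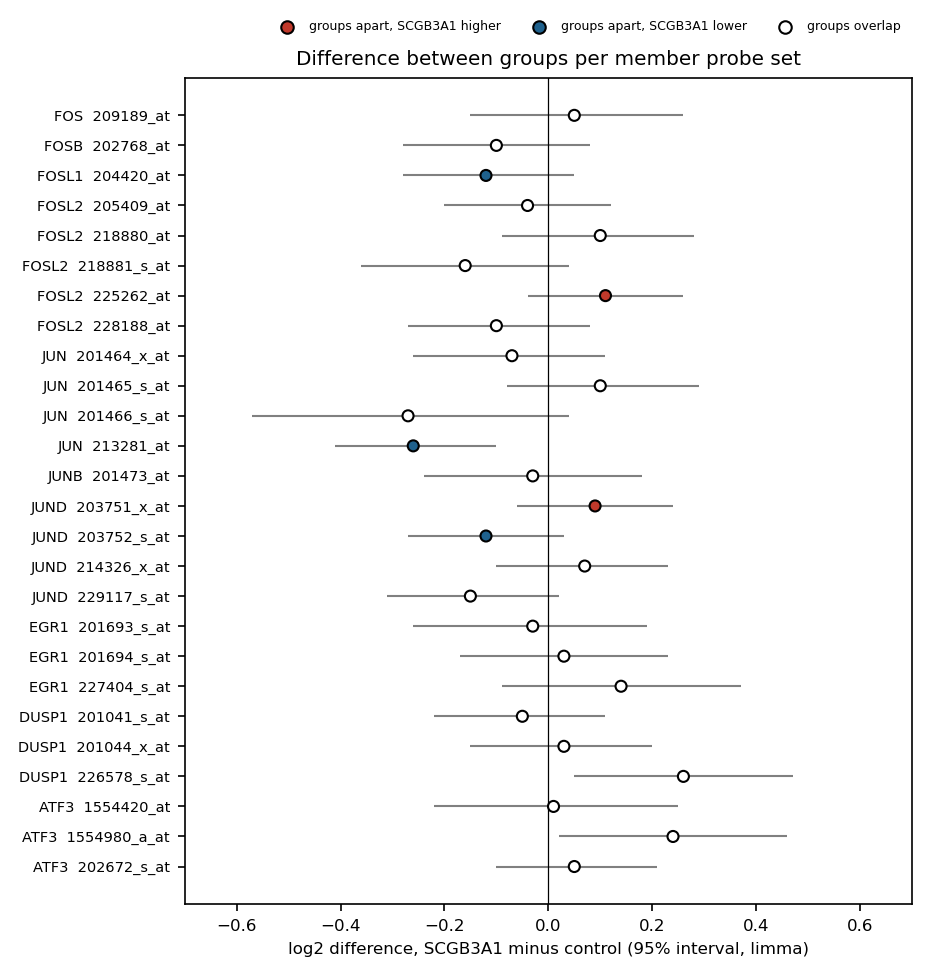
Log2 difference, SCGB3A1 minus control (horizontal axis), for each member probe set (vertical axis) with its 95% interval from limma; filled points mark probe sets whose groups do not overlap. All points lie between -0.27 and 0.26, on both sides of 0.

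FOS, the founding member of its family and a partner of all 3 Jun proteins, read 7.53, 7.71 and 7.56 in the SCGB3A1 arrays, against 7.68, 7.35 and 7.61 in the control arrays. The groups overlapped, and the widest gap was inside the control group, where replicate 2 was lowest. The difference was 0.05 ± 0.09 (SE; limma, adjusted p = 0.95), with an interval from -0.15 to 0.26, and without control replicate 2 it was -0.0441. FOSB, a close relative induced with FOS, averaged 6.80 ± 0.07 in SCGB3A1 and 6.90 ± 0.13 in control (SD, n = 3 each), both below the median of all probe sets, where this kind of normalization compresses differences.

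FOSL1, which encodes FRA1, read 7.84, 7.70 and 7.85 in the SCGB3A1 arrays, against 7.90, 7.87 and 7.98 in the control arrays. Every SCGB3A1 array lay below every control array, but by little, and the gap between the nearest arrays was smaller than the spread within either group. The difference was -0.12 ± 0.08 (SE; limma, adjusted p = 0.85; interval -0.28 to 0.05). The exact two-sided permutation test gave p = 0.1, which is the smallest that 3 against 3 arrays allow.

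FOSL2, which encodes FRA2, had 5 probe sets, and they did not move together. The brightest, 228188_at, averaged 10.03 ± 0.11 in SCGB3A1 and 10.13 ± 0.082 in control (SD, n = 3 each). Another, 225262_at, read 9.61, 9.57 and 9.58 in the SCGB3A1 arrays, against 9.52, 9.45 and 9.48 in the control arrays. This probe set was among the most even of the whole table, with a residual SD at the 2nd percentile of all probe sets, and its groups were apart by a difference of 0.11 ± 0.07 (SE; limma, adjusted p = 0.85). The remaining probe sets of FOSL2 read -0.04, 0.10 and -0.16. Averaged over all 5, the gene differed by -0.02 (exact two-sided permutation p = 0.7).

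JUN, the Jun protein most closely tied to JNK signalling, had the most negative differences of the set. Probe set 213281_at read 8.51, 8.50 and 8.50 in the SCGB3A1 arrays, against 8.69, 8.79 and 8.79 in the control arrays. All 3 SCGB3A1 arrays lay below all 3 control arrays, by more than the spread within either group. The difference was -0.26 ± 0.07 (SE; a fold of 0.838), and its interval, from -0.41 to -0.10, stayed below 0, but the adjusted p was 0.70 (limma).

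In the other probe sets of JUN the groups overlapped, although only 201465_s_at averaged higher in SCGB3A1. Probe set 201466_s_at read 8.43, 8.45 and 8.82 in the SCGB3A1 arrays, against 8.55, 9.15 and 8.80 in the control arrays. Here the groups overlapped, and the difference was -0.27 ± 0.14 (SE; limma, adjusted p = 0.82). Without control replicate 2, its highest array, the difference was -0.11. Probe set 201465_s_at read 9.52, 9.34 and 9.66 in the SCGB3A1 arrays, against 9.41, 9.38 and 9.42 in the control arrays, and so pointed the other way, with 0.10 ± 0.09 (SE; limma, adjusted p = 0.89). Its interval, from -0.08 to 0.29, did not overlap that of 213281_at. The difference between probe sets was not tested. The brightest, 201464_x_at, averaged 10.94 ± 0.11 in SCGB3A1 and 11.01 ± 0.12 in control (SD, n = 3 each); its name marks a probe set whose probes may also bind other transcripts. Averaged over its 4 probe sets, JUN read 9.34, 9.34 and 9.45 in SCGB3A1, against 9.45, 9.55 and 9.50 in control, a difference of -0.12 (exact two-sided permutation p = 0.2).

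JUNB, a Jun protein that can restrain JUN at some promoters, read 9.17, 9.09 and 9.10 in the SCGB3A1 arrays, against 9.21, 8.93 and 9.31 in the control arrays. The SCGB3A1 values lay inside the range of the control values, and the difference was -0.03 ± 0.09 (SE; limma, adjusted p = 0.97). Among the brightest probe set of each gene, that of JUNB had the widest range over the 6 arrays, 0.38, and this range came from the control group.

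JUND, the Jun protein that resting cells express most steadily, had 4 probe sets. Probe set 203752_s_at read 11.50, 11.56 and 11.52 in the SCGB3A1 arrays, against 11.60, 11.65 and 11.70 in the control arrays. The groups were apart, with SCGB3A1 lower by -0.12 ± 0.07 (SE; limma, adjusted p = 0.83). Probe set 203751_x_at was apart in the opposite direction, with 7.90, 7.98 and 7.91 in the SCGB3A1 arrays, against 7.88, 7.82 and 7.84 in the control arrays, a difference of 0.09 ± 0.07 (SE; limma, adjusted p = 0.88). Both had residual SDs at or below the 4th percentile of all probe sets, so that differences of this size sufficed to separate the arrays. The other JUND probe sets gave 0.07 (214326_x_at) and -0.15 (229117_s_at), of which 229117_s_at read below the median of all probe sets. The mean of the 3 brighter probe sets differed by 0.01, and that of all 4 by -0.0292. Both probe sets with a positive difference, 203751_x_at and 214326_x_at, are of the kind whose probes may also bind other transcripts. Those with a negative difference, 203752_s_at and 229117_s_at, are of another kind that may bind several transcripts. No JUND probe set is therefore free of this limit.

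EGR1, a zinc finger factor induced through SRF, gave no difference that exceeded the spread in any of its 3 probe sets. The brightest, 201694_s_at, read 10.11, 9.94 and 10.09 in the SCGB3A1 arrays, against 9.94, 10.21 and 9.90 in the control arrays. Probe set 227404_s_at read 9.83, 9.49 and 9.80 in the SCGB3A1 arrays, against 9.40, 9.70 and 9.60 in the control arrays. In both, SCGB3A1 replicate 2 was the lowest of its group and control replicate 2 the highest of its own. The differences were 0.03 ± 0.09 and 0.14 ± 0.11 (SE; limma, adjusted p = 0.97 and 0.88), and the remaining probe set, 201693_s_at, gave -0.03. EGR1 was also among the less even members, with residual SDs at the 80th to 91st percentiles of all probe sets.

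ATF3, a bZIP factor induced by stress that can pair with Jun proteins, had 1 probe set with an interval above 0. This was 1554980_a_at, with 8.16, 8.25 and 7.97 in the SCGB3A1 arrays, against 7.90, 7.72 and 8.06 in the control arrays. The groups overlapped, since SCGB3A1 replicate 3 read below control replicate 3. The difference was 0.24 ± 0.10 (SE; interval 0.02 to 0.46), with an adjusted p of 0.78 (limma). Probe set 202672_s_at was far more even and read 8.28, 8.22 and 8.32 in the SCGB3A1 arrays, against 8.22, 8.20 and 8.24 in the control arrays, which left a difference of 0.05 ± 0.07 (SE; limma, adjusted p = 0.93). The third, 1554420_at, read below the median of all probe sets and differed by 0.01.

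DUSP1, the MAP kinase phosphatase of the set, had the most positive difference. Probe set 226578_s_at read 7.60, 7.68 and 7.38 in the SCGB3A1 arrays, against 7.43, 7.16 and 7.29 in the control arrays. The groups overlapped only through SCGB3A1 replicate 3, which read below control replicate 1. The difference was 0.26 ± 0.10 (SE; interval 0.05 to 0.47), with an adjusted p of 0.77 (limma). The brightest probe set, 201041_s_at, did not show it, with 9.24, 9.33 and 9.23 in the SCGB3A1 arrays, against 9.34, 9.22 and 9.39 in the control arrays (-0.05 ± 0.08 SE; limma, adjusted p = 0.94), and 201044_x_at gave 0.03. Averaged over the 3 probe sets, DUSP1 differed by 0.08 and ATF3, over its 2 brighter ones, by 0.15 (exact two-sided permutation p = 0.2 for each gene, of 9 genes so tested). Over all 3 of its probe sets, ATF3 differed by 0.10 (exact two-sided permutation p = 0.1, the smallest possible).

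Immediate early messages respond to handling, so the spread inside each group was also described. The residual SD had a median of 0.109 over the member probe sets and 0.0966 over all probe sets, and 10 of 26 lay above the 75th percentile of the table while 6 lay below the 25th. The widest was that of JUN 201466_s_at, 0.263, at the 99th percentile. SCGB3A1 replicate 2 was the array of its group farthest from the group mean in 12 of 26 member probe sets, against 29.4% of all probe sets. Control replicate 2 was so likewise in 12, against 44.9%, and thus about as often as in the whole table. The 26 probe sets come from 10 genes and are not separate observations. Control replicate 2 was not high or low throughout. It was the lowest control array in 15 probe sets, among them FOS and JUNB, and the highest in 8, among them JUN 201466_s_at and EGR1 201694_s_at. Over the 6 arrays, 13 of the 31 pairs of probe sets of the same gene had a positive correlation. The points of these pairs are the same 6 arrays and share their normalization.

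**Figure D3:**
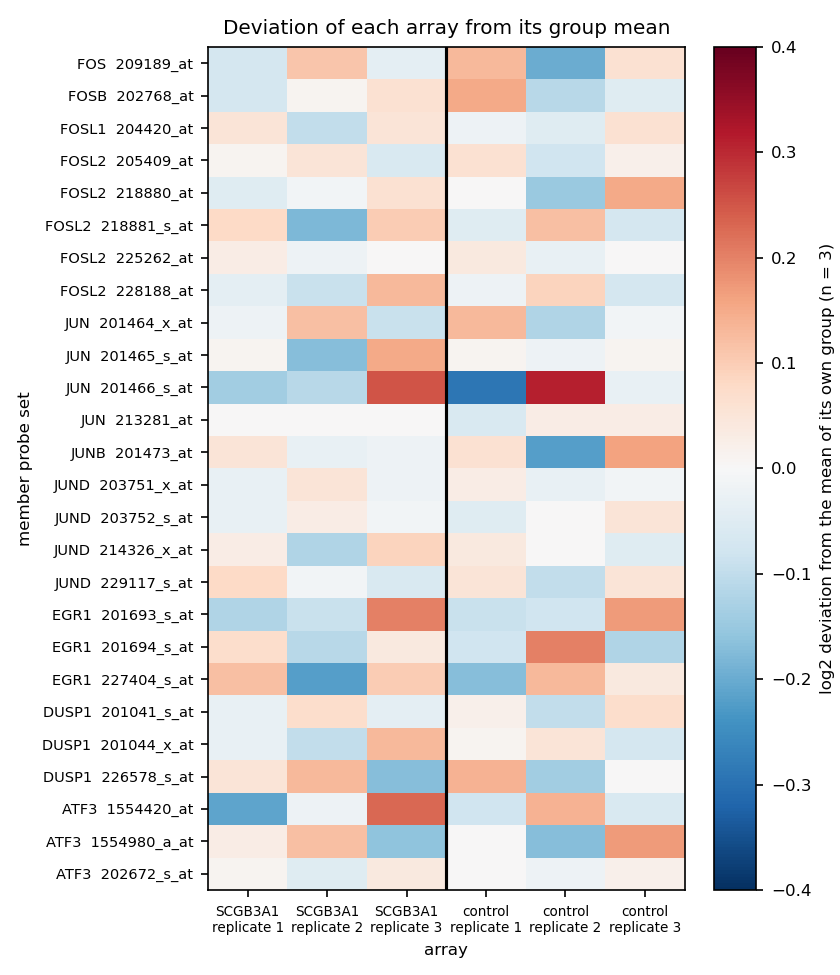
Deviation of each array (horizontal axis) from the mean of its own group, on the log2 scale (colour), for each member probe set (vertical axis). The strongest colours belong to JUN 201466_s_at, at the 99th percentile of residual SD, and neither group shows an array that is high or low in all genes.

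As a description of likeness, the JUNB probe set was compared over the 6 arrays with 12598 other genes above the median level. It had the widest range among the brightest probe set of each member gene, though not among all member probe sets. The closest patterns were those of C2orf49-DT, a non-coding RNA gene (Pearson r = 0.989), APTX, a DNA repair enzyme (0.986), and MARK4, a kinase of microtubule-associated proteins (0.98). With so few arrays high values are common, and 136 genes, or 1.08%, had r above 0.9. APTX read 8.94, 8.86 and 8.93 in the SCGB3A1 arrays, against 9.0, 8.74 and 9.07 in the control arrays, so that, as for JUNB, control replicate 2 was lowest and control replicate 3 highest.

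Genes around AP-1 were read in 6 lists, with the brightest probe set for each gene. In none of them did a gene pass adjusted p 0.05 over all probe sets, in either direction (limma), where 0.0303% of all genes passed. An unadjusted limma p under 0.05 was found for 6.82% of all genes. In the lists it was found for 6 of 23 bZIP factors, 2 of 30 other immediate early genes, 2 of 17 phosphatases and inhibitors, 1 of 21 upstream kinases, 3 of 20 AP-1 targets and 0 of 11 heat shock genes. These counts describe the lists and were not tested against the share over all genes. Over all 19775 genes the median difference was 0.0106, and the groups were fully apart in 7.09% of genes that read higher and 5.24% that read lower.

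Among the bZIP factors that pair with or resemble AP-1, 23 of 26 genes could be measured, with a median of 0.0008, and 3 were apart higher and 3 lower. Over all genes, 7.09% were apart higher and 5.24% lower. MAF, a large Maf factor, read 9.36, 9.45 and 9.09 in the SCGB3A1 arrays, against 8.71, 8.48 and 9.02 in the control arrays. All SCGB3A1 arrays exceeded all control arrays, although SCGB3A1 replicate 3 and control replicate 3 nearly met, and the difference of 0.56 ± 0.13 (SE; limma, adjusted p = 0.48) was larger than that of any member. BATF3, a Jun partner of leukocytes, gave -0.22 (adjusted p = 0.78). The other bZIP factors with an unadjusted p under 0.05, named after their values were seen, were split in direction, with 0.20 for CREB3 and 0.16 for DDIT3 but -0.17 for MAFF and -0.16 for CREB5 (limma, adjusted p of 0.78 or 0.79). Among 30 of 32 other immediate early genes, the median was -0.0293, with 3 apart higher and 3 lower. KLF2, a zinc finger factor of quiescent cells, gave -0.22 (limma, adjusted p = 0.74) and PTGS2, the inducible cyclooxygenase, 0.19 (adjusted p = 0.78).

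The 17 MAP kinase phosphatases and Sprouty or SPRED inhibitors, which restrain the same kinases as DUSP1, had a median of -0.0094, with 4 apart higher and 2 lower. For this list and the next, the shares over all genes were 7.09% higher and 5.24% lower. DUSP6, a phosphatase of ERK that is itself induced by ERK, read 10.31, 10.55 and 10.44 in the SCGB3A1 arrays, against 10.13, 10.17 and 10.19 in the control arrays. The groups were apart, with a difference of 0.27 ± 0.08 (SE; limma, adjusted p = 0.71), and DUSP14 gave 0.24 (adjusted p = 0.76). The kinases and SRF cofactors upstream had a median of 0.0538 over 21 of 27 genes, 4 apart higher and 0 lower. Of these, MAPK10, which encodes a JNK, gave 0.22 (limma, adjusted p = 0.76) and SRF 0.16 (adjusted p = 0.82). Without probe sets that may bind several transcripts the median was 0.0124, and without SCGB3A1 replicate 1 it was 0.0236.

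Known AP-1 targets had a median of -0.0725 over 20 of 22 genes, 6 positive and 14 negative, with 0 apart higher and 3 lower. Among all genes, 7.09% were apart higher and 5.24% lower. The list includes CD44 and AXL, which also stand among the SUM159 markers. EREG, an EGF receptor ligand, read 9.59, 9.73 and 9.53 in the SCGB3A1 arrays, against 9.94, 9.84 and 9.76 in the control arrays. Its groups were just apart, with a difference of -0.23 ± 0.08 (SE; limma, adjusted p = 0.76). MMP9, a matrix protease, also gave -0.23 (limma, adjusted p = 0.76). It read 6.87, 6.97 and 6.87 in the SCGB3A1 arrays, against 7.24, 6.98 and 7.17 in the control arrays. These values lie near 6.92, the median of all probe sets, and the nearest arrays of the groups almost met. Of the 20 targets, 15 read above that median. The median of the targets was -0.0179 without control replicate 1 and -0.0353 without control replicate 2. Heat shock genes, which also respond to handling, had a median of 0.0183 over 11 of 14 genes, with 1 apart higher and 0 lower. The HSP70 genes HSPA1A, HSPA1B and HSPA8 could not be measured, so the list does not speak for them. The highest of them was DNAJB4 at 0.15 (limma, adjusted p = 0.82), and HSPA6 gave 0.07 (adjusted p = 0.92). HSPA6 averaged 6.93 in SCGB3A1 and 6.86 in control, and its mean over all arrays lay below the median of all probe sets.

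**Figure D4:**
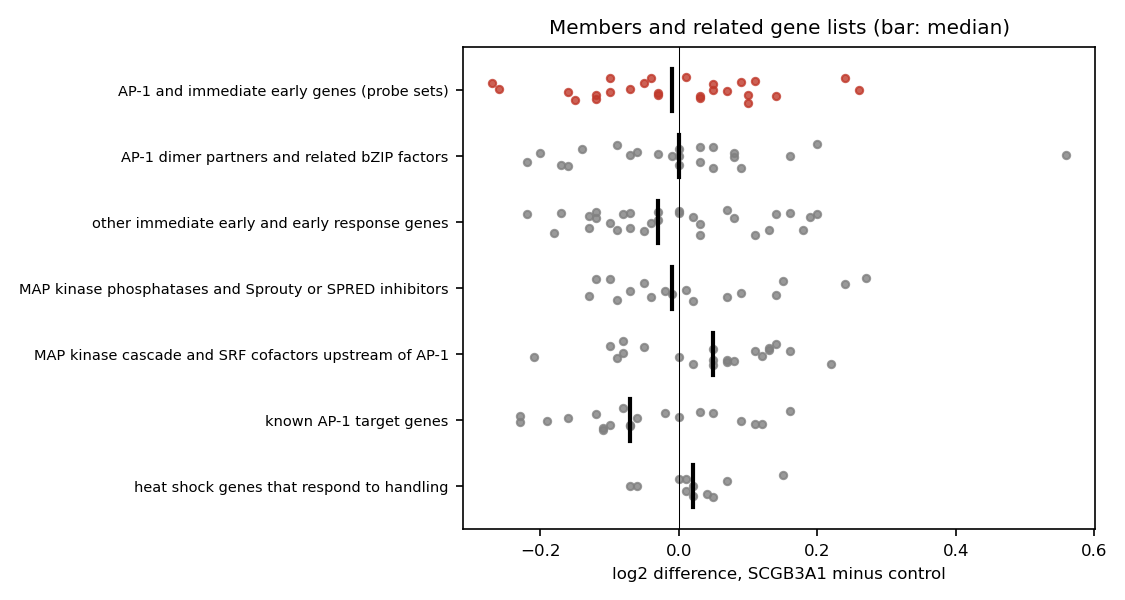
Log2 difference, SCGB3A1 minus control (horizontal axis), of the 26 member probe sets (red points, top row) and of the genes of 6 related lists (grey points, 1 probe set per gene), with black bars for medians. The points scatter on both sides of 0 in every row, and MAF, at 0.56, lies farthest out.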

How the data were processed

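Total RNA was labelled from 100 ng and hybridised to Affymetrix Human Genome U133 Plus 2.0 arrays. The deposited log2 values were made by the authors by robust multiarray average (RMA) in Chipster, a method that subtracts background, sets the arrays to a shared distribution by quantiles and fits 1 value to the probes of each set. It gives all arrays nearly the same distribution (sorted values within 0.026 of their mean), hides a change of total RNA, and compresses differences at low levels. The number of arrays limits the precision. Of 54675 probe sets, 62 manufacturer controls were left out. GEO's platform annotation, checked by gene identifier against RefSeq, gave 1 symbol for 41091 probe sets, several for 1801 and none for 11721; only the first were named.

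The groups were compared with limma 3.58.1 (lmFit, eBayes) in R 4.3.3 with Benjamini-Hochberg adjustment over all 54613 probe sets, after the empirical Bayes test of the study's methods. The fit was also run on simulated data. The differences added there were larger than any of the members, so that run does not speak to differences of their size. Gene values, the mean of the probe sets above the median of all values, were compared by exact permutation. FOSB had no such probe set and so no gene value. All tests were two-sided. The eBayes step draws the variance of each probe set towards a value shared by all probe sets. For a very even probe set the SE can therefore exceed what its own arrays would give. Alternatives were a variance trend, array weights, a replicate block, median centring, cyclic loess, filters on dim and on _x_at and _s_at probe sets, 1 probe set per gene, and each array left out. Besides the members, the 2 genes with the smallest p of each list and the 3 most like JUNB were named. JUNB had the widest range when each member gene was read by its brightest probe set. Members and lists were chosen with earlier results of these data known.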

Additional observations from a re-analysis of the deposited data

How the results depend on the processing

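Under all alternatives, 0 member probe sets passed adjusted p 0.05, and 0 met the criteria of the study's signature. In 330 comparisons of single member probe sets with an alternative, 316 kept their direction and 14 turned it, all by leaving out 1 array, and the lowest adjusted p was 0.402 (limma). The 6 probe sets that turned ran from -0.0441 to 0.1212 (FOS), -0.1389 to 0.0498 (JUNB), -0.1367 to 0.0512 (EGR1 201693_s_at), -0.0296 to 0.127 (EGR1 201694_s_at), -0.0382 to 0.0773 (DUSP1 201044_x_at) and -0.1003 to 0.1191 (ATF3 1554420_at). Gene values that turned were the FOS and JUNB ones, with the same ranges, FOSL2 (-0.0408 to 0.0058), JUND (-0.0016 to 0.0173, and -0.0292 over all its probe sets) and EGR1 (-0.0124 to 0.1135). The cause was not tested.

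Among all probe sets, the count past adjusted p 0.05 was 10. It was 19 with an intensity trend, 16 with array weights, 6 without dim probe sets, 17 by the criteria of the study's signature (log2 difference beyond 0.5, unadjusted p under 0.05 and adjusted p under 0.25), and 4, 1 and 3 without SCGB3A1 replicates 1, 2 and 3 or 3, 6 and 4 without control replicates 1, 2 and 3 (range 1 to 6). With the replicate block it was 4, and 0 of them were members. Same-numbered arrays did not deviate together (r = 0.15, -0.14 and -0.09), so the numbers were not taken as pairs.

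The median of the members was -0.0632 with 1 probe set per gene and ran from -0.0476 to 0.0099 with 1 array left out. That of the bZIP factors ran from -0.0231 to 0.0213, that of the upstream kinases from 0.0236 to 0.0746 and that of the AP-1 targets from -0.0913 to -0.0179. With every probe set of a gene averaged, the medians were -0.0047 for other immediate early genes, 0.0158 for upstream kinases and -0.0488 for AP-1 targets. Without _x_at and _s_at probe sets the kinases gave 0.0124, and without dim probe sets the targets gave -0.0968.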
